A study of Drosophila melanogaster with 8 samples.

Results

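Molecular chaperones bind other proteins while these fold, assemble, cross membranes or recover from damage. Proteins of the Hsp70 family hold and release short stretches of unfolded chain in cycles that J proteins start and nucleotide exchange factors end, Hsp90 acts later on kinases and receptors, and the ring-shaped chaperonins enclose whole proteins. Small heat shock proteins keep damaged proteins from aggregating, and the heat shock factor Hsf switches on many chaperone genes under stress. In insects, heat shock proteins have often been examined in cold and in dormancy.

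The genes described here are 40 chaperone genes, out of 11982 with a probe set (a group of short probes for 1 transcript) of their own on the Affymetrix Drosophila array. They were chosen by a rule on gene names, with earlier results of these data known, as genes named Hsp, Hsc, CCT, DnaJ, Droj, Pfdn or Fkbp together with Hsf, stv, l(2)efl, P58IPK, Cdc37 and Tpr2, and without the Hsp70 copies and Hsp22. The left-out genes had 7 probe sets, all shared between genes, of which 4 had a mean of 4 or more, and these 4 were all called higher in short days, with log2 differences between 0.76 and 1.58 (limma, unadjusted p under 0.01). The statements on chaperone genes below do not cover them. Although most are made without stress, Hsp26, Hsp27 and Hsp68 are known as heat-inducible, so the set is not purely constitutive. By role the set holds 7 genes of the Hsp70 family, 5 J proteins, 3 partners of Hsp90, 3 small heat shock proteins, 8 subunits of the cytosolic chaperonin CCT, 4 genes of the Hsp60 family of mitochondrial chaperonins, 5 prefoldins, 3 prolyl isomerases of the FKBP type, and Hsf with the cochaperone stv. Hsp83, the Hsp90 of the fly, and Hsp23, Hsp67Ba and Hsp67Bc had no probe set listed for them here, DnaJ-60 had only a probe set shared with another gene, and none of these was analysed.

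Heads came from Canton_S females, a wild-type laboratory strain, and all flies were placed at 12.5 °C within 8 h of emergence and kept there for 12 days. The short day group (4 samples) lived under 10 h of light and 14 h of dark, and the long day group (4 samples) under 16 h of light and 8 h of dark. Heads were taken 4 h after lights-on. The labels number the samples without saying whether they came from separate vials, so the spread behind the tests may be technical. The study's methods give a shorter short day than the labels, and the labels are followed here.

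Values are log2 expression as deposited, and levels of different probe sets are not compared with each other. Array medians, taken over probe sets of mean 4 or more, lay between 8.44 and 8.52. All 6 neuron and 5 photoreceptor markers had means of 4 or more, and the 4 ovary and germline markers sat at or next to the lowest value (2.15) on all arrays. The array of short day replicate 3 stood apart in flight muscle transcripts, with fln (flightin) at 11.71 and at most 2.69 on the other 7 arrays. Transcripts of other tissues also moved with day length. Of 6 fat body markers 5 (Yp1, Yp2, Yp3, fit and Lsp2) were called lower in short days, and of 6 head muscle markers 4 were called higher. The sixth fat body marker, apolpp, differed by -0.06 and was not called. The paper lists genes of yolk proteins among those shared by its diapause and photoperiod comparisons. In heads, fewer cells of a type and less RNA per cell cannot be told apart.

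By the number of calls and the median difference, the chaperone genes as a set hardly differed between short and long days. At an unadjusted p under 0.01 in limma, the threshold for calling a gene, only Fkbp39 fell and no chaperone gene rose. This was 1 of 40 genes, or 2.5%, beside 3.48% called among all genes (1.79% higher and 1.69% lower) and so no more than the background. Over genes of mean 4 or more it was 1 of 36, or 2.78%, beside 5.65% (2.91% higher and 2.74% lower). No chaperone gene passed 0.05 after Benjamini-Hochberg adjustment in limma, the smallest adjusted p being 0.301. Hardly any probe set did, with 1 of 18769 passing. The smallest value among all genes was 0.0617 (limma, adjusted p). The median log2 difference (short minus long) was -0.02 over the 40 chaperone genes and 0.00 over all genes, and -0.03 and 0.02 over those of mean 4 or more.

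At an unadjusted p under 0.05 the chaperone genes held 9 of 40, or 22.5%, beside 11.1% of all genes. Over genes of mean 4 or more they held 9 of 36, or 25.0%, beside 17.8%. Of these 9, 6 were higher in short days (Pfdn4, Hsp26, l(2)efl, Hsc70-1, Hsp68 and Droj2) and 3 lower (Fkbp39, P58IPK and Hsc70-3). Among all genes 6.04% were higher and 5.07% lower at this threshold, and among genes of mean 4 or more 9.69% and 8.11%. The count of 6 was 2 without short day replicate 2, and the share among all genes was not computed for that fit. Calls over all probe sets at an unadjusted p under 0.01 in limma also fell there, from 518 to 384. In 3 of 40 genes, or 7.5%, all short day values lay on one side of all long day values, beside 7.34% among all genes (3.87% above and 3.47% below). Over genes of mean 4 or more it was 3 of 36, or 8.33%, beside 11.7% (6.18% above and 5.48% below). The 3 were Hsp26, above, and P58IPK and Fkbp39, below.

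The spread was small enough to bound most differences. Of the 40 genes 36 had a mean of 4 or more, and in 21 of these the 95% interval of the difference lay within 1.2-fold in either direction (58.3%, beside 36.2% of all genes of that level). In 31 it lay within 1.5-fold (86.1%, beside 86.4% of all genes of that level) and in all 36 within 2-fold (beside 97.1%). The 4 others were Hsc70-2 and the Hsp60 family members Hsp60B, Hsp60C and Hsp60D, of which Hsp60B and Hsp60C are known in Drosophila from the germ line. Hsp60B, Hsp60C and Hsp60D stayed between 2.15 and 2.26 on all arrays, at or next to the lowest value, so no difference could be measured in them. Hsc70-2 had 3.23, 3.23, 4.01 and 3.18 in short days, against 3.55, 3.64, 4.10 and 3.62 in long days.

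**Figure D1:**
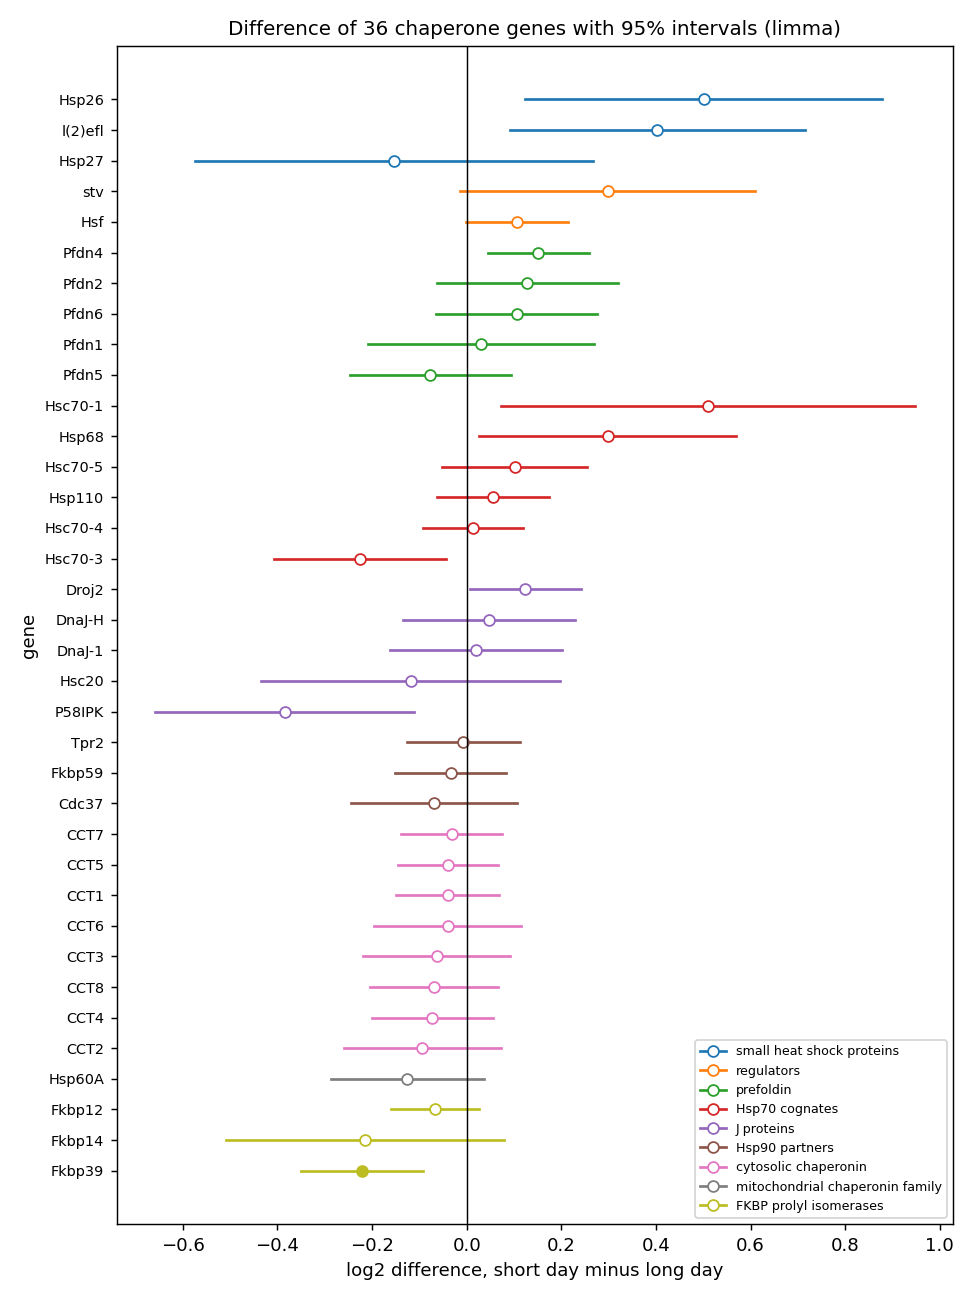
Log2 difference (short day minus long day, x axis) of the 36 chaperone genes of mean 4 or more (y axis), coloured by role, with 95% intervals from limma over 4 short day and 4 long day arrays. The filled point, Fkbp39, is the only gene with an unadjusted p under 0.01, and all 8 CCT subunits sit between -0.09 and -0.03.

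Hsf, the transcription factor of the heat shock response, had 10.34, 10.48, 10.34 and 10.38 in short days, against 10.27, 10.21, 10.27 and 10.36 in long days. The ranges of the groups overlapped only through long day replicate 4. The log2 difference was 0.11 ± 0.04 (SE), and Hsf was not called (limma, adjusted p = 0.573). The cochaperone stv (starvin), a BAG protein that helps Hsp70 to release its clients and is known for maintaining muscle in the fly, had 11.20, 11.50, 11.19 and 11.43 in short days, against 10.95, 10.76, 11.20 and 11.21 in long days. Short day replicates 1 and 3 lay just below long day replicates 3 and 4. Its difference of 0.30 ± 0.13 (SE) was not called (limma, adjusted p = 0.586, 95% interval -0.01 to 0.61).

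Among the small heat shock proteins, Hsp26 and l(2)efl were higher in short days at an unadjusted p under 0.05 and Hsp27 was not. Hsp26 had 7.91, 8.14, 8.66 and 8.14 in short days, against 7.70, 7.65, 7.70 and 7.78 in long days. The groups did not overlap, and the highest value was that of short day replicate 3, the array with flight muscle transcripts. The short day mean was 8.21 ± 0.32 and the long day mean 7.71 ± 0.05 (SD, n = 4 each), a 1.42-fold difference that was not called (limma, adjusted p = 0.414). Without short day replicate 3 the difference was smaller, at 0.35, and was called in limma, and without short day replicate 1 it was 0.60 and called. With both filters on low values it was called too, which makes 4 of 19 alternatives.

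The gene l(2)efl encodes the fly's counterpart of alpha B-crystallin, a small heat shock protein of muscle in mammals. Its brightest probe set had 13.23, 13.23, 13.01 and 12.81 in short days, against 12.87, 12.69, 12.66 and 12.46 in long days. Only short day replicate 4 and long day replicate 1 crossed. The difference was 0.40 ± 0.13 (SE) or 1.32-fold, not called (limma, adjusted p = 0.429). A dimmer probe set of the gene gave a difference of 0.53 (limma, adjusted p = 0.479), and the third was at the lowest value on all arrays. Without short day replicate 3 the difference of the brightest probe set was 0.42, and without short day replicate 4 it was 0.49 and called. It was also called with both filters on low values and with the replicate number as a block, which makes 4 of 19 alternatives.

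Hsp27, which lies in the same cluster on chromosome arm 3L as Hsp26 with 2 protein-coding genes between them (RefSeq), was not called. It had 6.41, 6.27, 6.86 and 6.19 in short days, against 6.39, 6.57, 6.53 and 6.86 in long days, and the groups overlapped over nearly their whole range. Its difference was -0.15 with a 95% interval of -0.57 to 0.27 (limma, adjusted p = 0.855).

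**Figure D2:**
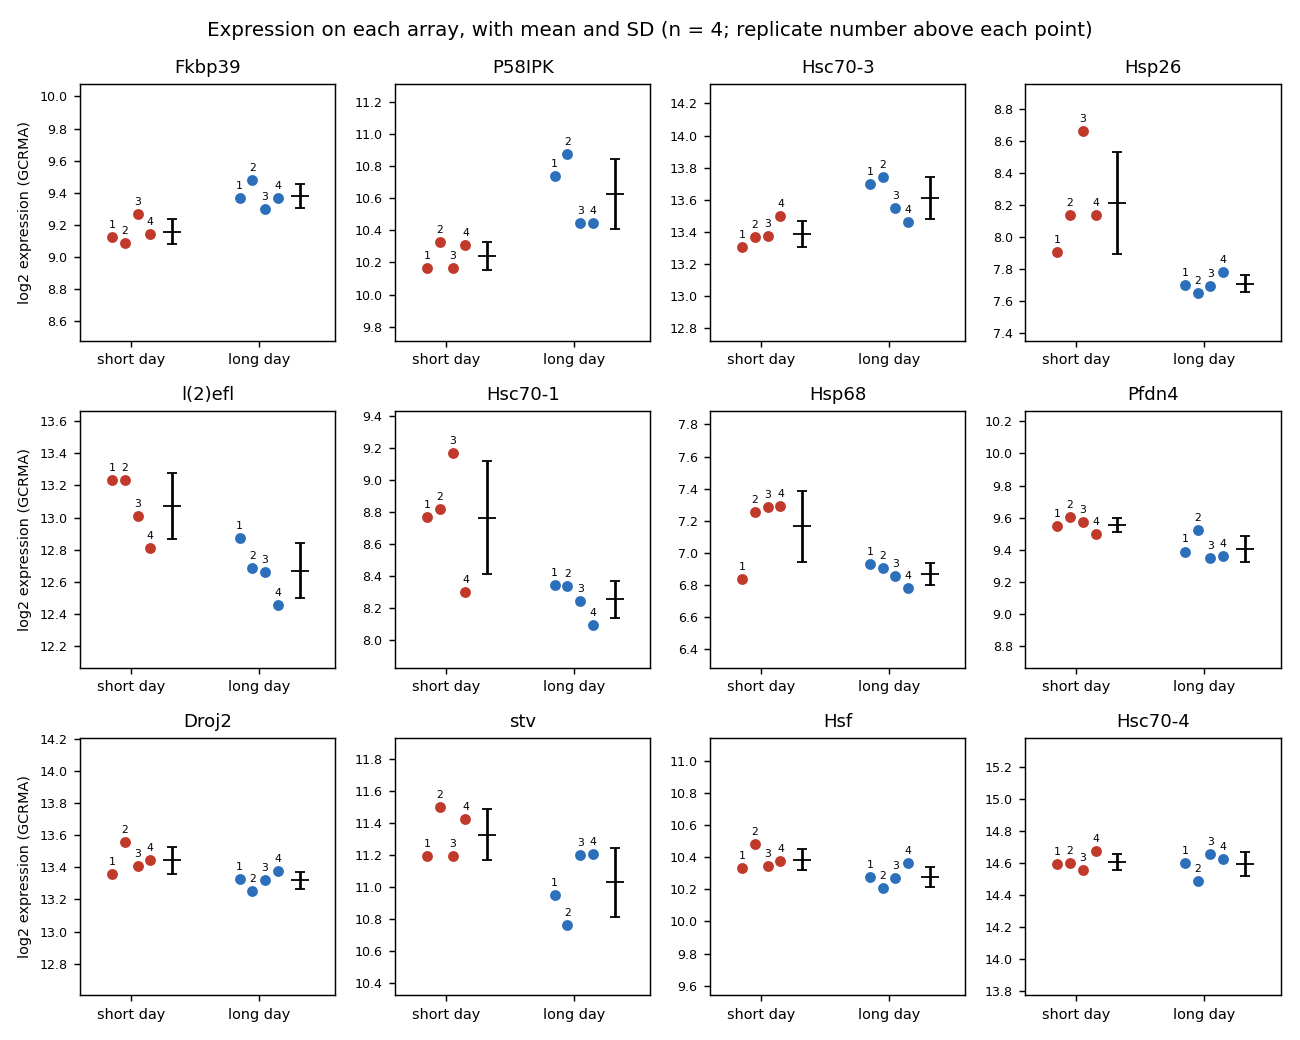
Log2 expression (y axis) of 12 chaperone genes on each of the 4 short day (red) and 4 long day (blue) arrays, with the replicate number above each point and the mean and SD (n = 4) beside each group, and the same span of 1.6 on every axis. Hsp26 and Hsc70-1 were highest in short day replicate 3 (8.66 and 9.17), while Hsc70-4 lay between 14.48 and 14.67 in all 8 samples.

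None of the 7 genes of the Hsp70 family was called, and at an unadjusted p under 0.05 Hsc70-1 and Hsp68 were higher in short days and Hsc70-3 lower. Hsc70-4, the abundant cytosolic cognate that also uncoats clathrin vesicles at synapses, had 14.59, 14.60, 14.55 and 14.67 in short days, against 14.60, 14.48, 14.66 and 14.62 in long days. Its difference was 0.01, with a 95% interval of -0.09 to 0.12. Hsp110, which exchanges the nucleotide of Hsp70, differed by 0.06 (95% interval -0.06 to 0.17), and Hsc70-5, the Hsp70 of mitochondria, by 0.10 (-0.05 to 0.25).

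Hsc70-1, a cognate of the cytosolic type, had 8.77, 8.82, 9.17 and 8.30 in short days, against 8.34, 8.34, 8.24 and 8.09 in long days. Short day replicates 1, 2 and 3 were above all long day samples and replicate 4 was not. The difference of 0.51 ± 0.18 (SE) was the largest upward one among the chaperone genes of mean 4 or more and was not called (limma, adjusted p = 0.486). It was 0.38 without short day replicate 3 and 0.66 without short day replicate 4, where it was called. With the filter at a mean of 6 it was called too, which makes 2 of 19 alternatives. The gene's other probe sets gave smaller differences of 0.30 and 0.15. Neither reached an unadjusted p under 0.05 (limma, adjusted p = 0.624 and adjusted p = 0.658).

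Hsp68, a heat-inducible relative of Hsp70, had 6.84, 7.26, 7.28 and 7.29 in short days, against 6.93, 6.91, 6.85 and 6.78 in long days. Short day replicate 1 lay within the long day range and the other 3 well above it. The difference of 0.30 ± 0.11 (SE) was not called (limma, adjusted p = 0.518), but was 0.41 and called without short day replicate 1. Among the left-out probe sets, that of Hsp70Aa and Hsp70Ab averaged 7.32 ± 0.23 in short days and 5.74 ± 0.19 in long days (SD, n = 4 each), and was called (limma, adjusted p = 0.0617). That of Hsp22 and CG4456 averaged 11.19 ± 0.28 in short days and 10.28 ± 0.40 in long days (SD, n = 4 each), and was also called (limma, adjusted p = 0.324). Whether transcripts of the Hsp70 copies add to the Hsp68 signal was not tested.

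The 3 chaperone genes of the set that act in the endoplasmic reticulum, where secreted proteins fold, had lower means in short days. None of them was called. Hsc70-3, the fly's BiP and the Hsp70 of this compartment, had 13.30, 13.37, 13.37 and 13.50 in short days, against 13.70, 13.74, 13.55 and 13.46 in long days. The groups overlapped only through short day replicate 4 and long day replicate 4. The difference was -0.23 ± 0.07 (SE), a ratio of 0.855, and was not called (limma, adjusted p = 0.445). Without long day replicate 4 it was -0.28 and called.

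P58IPK, the J protein that works with BiP, had 10.16, 10.33, 10.16 and 10.31 in short days, against 10.74, 10.88, 10.45 and 10.44 in long days. The groups did not overlap, and long day replicates 1 and 2 were the highest samples. The short day mean was 10.24 ± 0.09 and the long day mean 10.63 ± 0.22 (SD, n = 4 each), a ratio of 0.766 and the largest downward difference among chaperone genes of mean 4 or more. It was not called (limma, adjusted p = 0.397). It was -0.45 and called without long day replicate 4, and it was called in 5 of 19 alternatives in all, the others being both filters on low values, quantile normalization repeated and median centring. Fkbp14, a prolyl isomerase of the endoplasmic reticulum, had 11.93, 11.69, 11.93 and 11.90 in short days, against 12.11, 12.33, 12.08 and 11.79 in long days, and its difference of -0.22 was not called (limma, adjusted p = 0.744).

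These 3 genes, grouped after their values were seen, had in common that long day replicates 1 and 2 were their highest samples. The mean deviation of the 3 from their own mean over all arrays was between -0.17 and -0.06 on short day arrays and was 0.21, 0.35, 0.06 and -0.07 in long day replicates 1 to 4. Fat body markers, from a tissue that secretes large amounts of protein, moved with day length in the same direction. The mean deviation of the 6 markers was between -0.57 and -0.16 on short day arrays and between 0.26 and 0.39 on long day arrays, and none of the 6 was at the lowest value. Among the markers apolpp differed by only -0.06 and was not called. The part of the fat body in the lower values of these chaperones was not tested.

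Other genes of folding in the endoplasmic reticulum and of its stress response were examined from a separate list. None of 20 such genes of mean 4 or more was called, in either direction, and 1 was higher and 2 lower at an unadjusted p under 0.05 (15%, beside 17.8% of all genes of that level). Pdi, the other gene of the list with a probe set, was at or next to the lowest value. The median log2 difference of the 20 was -0.05. Of them 14 had a lower mean in short days and 6 a higher one (70% lower, beside 43.8% of all genes of that level). Their mean deviation was 0.08, 0.10, 0.00 and -0.08 in long day replicates 1 to 4. On short day arrays it was between -0.06 and 0.01, so long day replicate 4 was the lowest array. The genes were measured in the same samples and are not independent of each other. CaBP1, a protein disulfide isomerase, had 9.54, 9.78, 9.80 and 9.65 in short days, against 10.26, 10.50, 10.04 and 9.90 in long days, and lay below in every short day sample (difference -0.48, limma, adjusted p = 0.393). The stress sensor kinase PEK differed by 0.16, with all short day values above (limma, adjusted p = 0.463), and the translocation factor Sec63 by -0.17 (adjusted p = 0.499). Sil1, which exchanges the nucleotide of BiP, gave -0.14 (limma, adjusted p = 0.580). Cnx99A, also of the list, went the other way, with a difference of 0.20 (limma, adjusted p = 0.586).

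**Figure D3:**
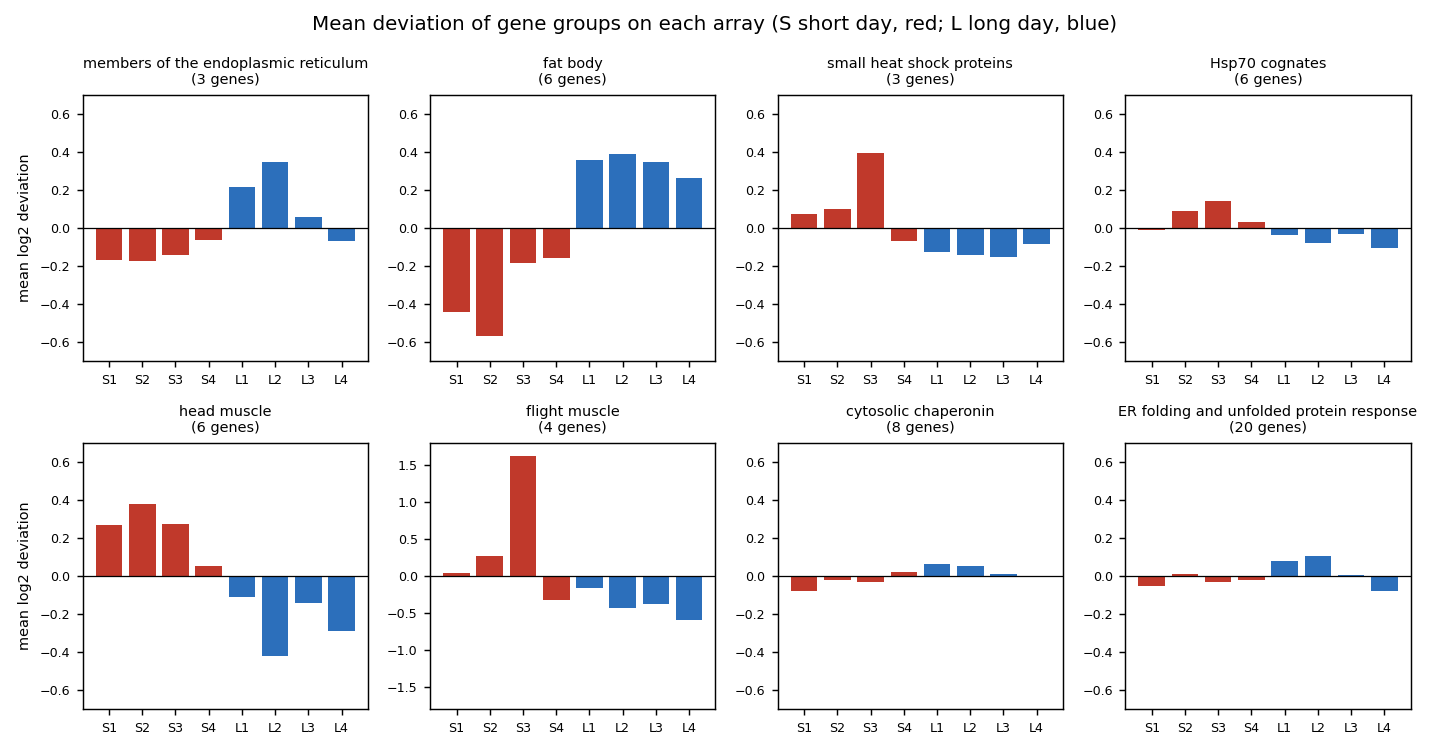
Mean log2 deviation (y axis) of the genes of each group from their own mean over all arrays, on 4 short day (S, red) and 4 long day (L, blue) arrays, for groups of chaperone genes and for fat body and muscle markers of mean 4 or more. The panel of flight muscle has a wider axis, its highest bar (1.61) is short day replicate 3, and the chaperonin bars stay between -0.08 and 0.06.

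The J proteins of the cytosol, which hand clients to Hsp70, differed by little. DnaJ-1, the fly's main Hsp40, had 11.96, 12.00, 12.01 and 12.03 in short days, against 11.93, 11.83, 11.98 and 12.19 in long days. The short day samples were nearly identical and lay inside the long day range (difference 0.02, 95% interval -0.16 to 0.20). Droj2 had 13.36, 13.56, 13.41 and 13.44 in short days, against 13.33, 13.25, 13.32 and 13.38 in long days. Its difference of 0.12 ± 0.05 (SE) was not called (limma, adjusted p = 0.536). DnaJ-H differed by 0.05 (limma, adjusted p = 0.989), and Hsc20, a J protein of iron-sulfur cluster assembly in mitochondria, by -0.12 (adjusted p = 0.845).

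None of the partners of Hsp90 was called. Cdc37, which brings kinases to Hsp90, had 8.96, 9.09, 8.97 and 9.01 in short days, against 9.24, 9.14, 8.95 and 8.99 in long days, and the groups overlapped (difference -0.07, limma, adjusted p = 0.830). Fkbp59 and Tpr2, a prolyl isomerase and a J protein that bind Hsp90, differed by -0.03 and -0.01, and the 95% intervals of the 3 partners reached from -0.25 to 0.11. Of 11 further cytosolic cochaperones from a separate list none was called, and 2, spag (0.21) and mrj (0.10), were higher at an unadjusted p under 0.05 (limma, adjusted p = 0.487 and adjusted p = 0.494). This was 18.2%, beside 17.8% of all genes of mean 4 or more.

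CCT, which folds actin and tubulin, hardly varied. Each of its 8 subunits had a slightly lower mean in short days, with log2 differences between -0.09 (CCT2) and -0.03 (CCT7), and none was called. Over all genes of mean 4 or more, 43.8% were lower in short days. The subunits are parts of 1 complex measured in the same samples and are not independent of each other. CCT4, with the smallest p of these, had 9.68, 9.72, 9.68 and 9.81 in short days, against 9.90, 9.70, 9.74 and 9.84 in long days. The groups overlapped widely, as did those of the other subunits. The 95% intervals of all 8 subunits lay between -0.26 and 0.11, and without short day replicate 1 the lower mean was kept by 7 of 8.

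Prefoldin delivers unfolded actin and tubulin to CCT, and 4 of its 5 measured subunits had a higher mean in short days. Among all genes of mean 4 or more, 4128 of 7348 were higher and 3220 lower. The prefoldin subunits are also parts of 1 complex and are not independent of each other. Pfdn4 had 9.55, 9.61, 9.57 and 9.50 in short days, against 9.39, 9.52, 9.35 and 9.36 in long days. Long day replicate 2 was the only long day sample within the short day range. The difference of 0.15 ± 0.04 (SE), or 1.11-fold, was not called (limma, adjusted p = 0.396) but was 0.19 and called without long day replicate 2. It was called in 4 of 19 alternatives in all. The others were the replicate number as a block, array weights, and the fit without long day replicate 2 and short day replicate 3. Pfdn2, Pfdn6 and Pfdn1 differed by 0.13, 0.11 and 0.03 and Pfdn5 by -0.08, none of them called. Pfdn5 lies close to CCT1 on chromosome arm 3R, with 1 protein-coding gene between them.

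Of the Hsp60 family only Hsp60A, the general chaperonin of the mitochondrial matrix, was measurable. It had 11.61, 11.64, 11.51 and 11.73 in short days, against 11.87, 11.75, 11.63 and 11.73 in long days, and the groups overlapped. The difference was -0.13 ± 0.07 (SE) and was not called (limma, adjusted p = 0.715). None of 8 other genes of mitochondrial folding and protein breakdown was called, nor did any reach an unadjusted p under 0.05. Spg7, a protease subunit of the inner membrane with the smallest p of these, differed by 0.12 (limma, adjusted p = 0.643).

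**Figure D4:**
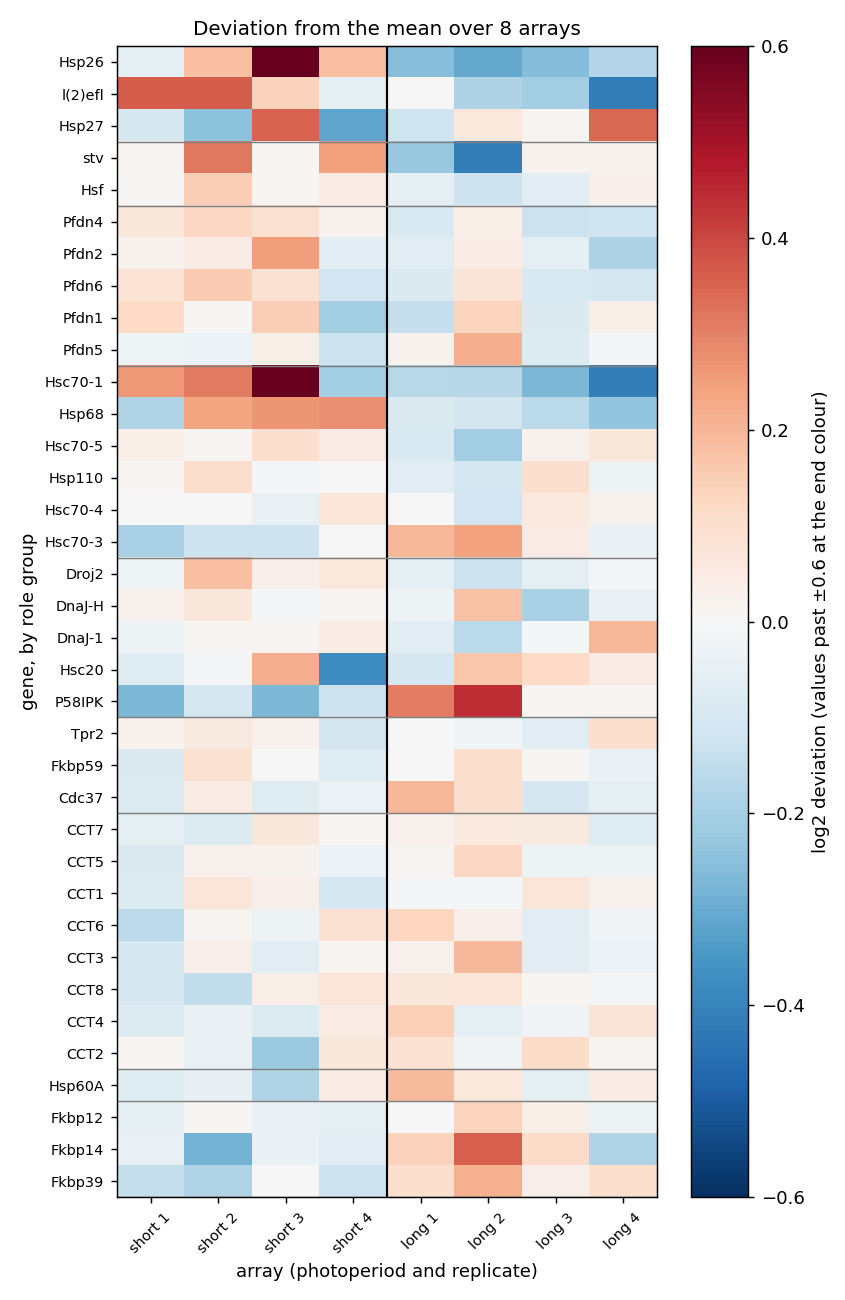
Log2 deviation of each of 36 chaperone genes (rows, by role) from its mean over the 8 arrays (columns, 4 short day left of the line and 4 long day right of it). Strong colour is limited to few genes, among them Hsp26 and Hsc70-1 in short day replicate 3 and P58IPK in long day replicate 2, and the CCT rows are pale throughout.

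Fkbp39 was the only chaperone gene that was called. It encodes a nuclear prolyl isomerase that in Drosophila is known to restrain autophagy and to bind a juvenile hormone response element in DNA. It had 9.13, 9.09, 9.27 and 9.14 in short days, against 9.37, 9.48, 9.30 and 9.37 in long days. Every short day sample was below every long day sample, with a gap of 0.03 between short day replicate 3 and long day replicate 3. The short day mean was 9.16 ± 0.08 and the long day mean 9.38 ± 0.08 (SD, n = 4 each). Fkbp39 thus fell to 0.858 of the long day level (log2 difference -0.22, 95% interval -0.35 to -0.09, limma, adjusted p = 0.301). The call was lost when long day replicate 1, 2 or 4 or short day replicate 1, 2 or 4 was left out. The replicate number as a block and the trend and robust variance model also lost it, and it was kept in 11 of 19 alternatives. The difference stayed between -0.26 and -0.19 over all leave-one-out fits. Fkbp12, the smallest of the family and the target of the drug FK506, had 13.07, 13.13, 13.08 and 13.07 in short days, against 13.12, 13.26, 13.15 and 13.09 in long days, and was not called (difference -0.07, limma, adjusted p = 0.748).

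The means of Hsp26, l(2)efl, Hsc70-1 and stv were higher in short days, as were those of muscle, neuron, haemocyte and photoreceptor markers. These 4 genes were put together after their values were seen. In limma stv did not reach an unadjusted p under 0.05. Pfdn4, Hsp68 and Droj2, which were also higher at that threshold, are not among the 4. The mean deviation of the 6 head muscle markers was between 0.05 and 0.38 on short day arrays and between -0.42 and -0.11 on long day arrays, with none of the markers at the lowest value. That of the 4 flight muscle markers of mean 4 or more was 0.04, 0.27, 1.61 and -0.33 in short day replicates 1 to 4 and between -0.60 and -0.17 on long day arrays. The defining flight muscle markers fln and TpnC4 were at or near the lowest value on all arrays but short day replicate 3. Without that array the log2 differences of Hsp26, l(2)efl, Hsc70-1 and stv were 0.35, 0.42, 0.38 and 0.34. The 6 neuron markers all had higher means in short days, with 1 called (Snap25, difference 0.26), and their mean deviation was 0.14, 0.25, -0.08 and 0.14 in short day replicates 1 to 4 and between -0.40 and 0.02 on long day arrays. None of the 3 haemocyte markers was called, although all 3 had higher means in short days. All 5 photoreceptor markers also had higher means and all 3 glia markers lower means, and none of either was called. Among all genes of mean 4 or more, 4128 had a higher mean in short days and 3220 a lower one. The part of head muscle, neurons, haemocytes, photoreceptors and glia in the values of the 4 chaperone genes was not tested.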

How the data were processed

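Total RNA of female heads was labelled as biotin-cRNA and hybridised to 1 Affymetrix array per sample. The authors deposited 1 log2 value for each probe set and array, computed by GCRMA (version not given in the sources used), which corrects background by probe sequence, quantile-normalizes the arrays and summarises probes. Quantile normalization hides changes in total mRNA. All value columns belonged to the 8 samples. Scanner files were not used, so no scan batch was tested. Precision is limited by having only 4 arrays in each group.

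Of 18952 probe sets, 183 controls were set aside and 18769 fitted with limma 3.58.1 in R 4.3.3 (lmFit, eBayes, two-sided, short day minus long day, no block). A gene was called at an unadjusted p under 0.01, the study's threshold, and Benjamini-Hochberg adjustment ran over all 18769. For each of 11982 genes the brightest probe set among those annotated to that gene alone was used. All 40 chaperone genes matched the RefSeq table by Entrez number with the same symbol. No coordinates are printed. Of the 40 probe sets, 13 carry the suffix _s_at, which marks probes shared by several transcripts, so signals of close relatives may mix.

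The members, lists and naming rule were chosen with earlier results of these data known. The rule gave values on every array for genes called or not overlapping between groups and for the gene with the smallest p of each role; the other genes shown in full were chosen after their values were seen. Hsc20 was counted as a chaperone gene and not in the mitochondrial list. Alternatives were the replicate number as a block, a minimum mean of 4 or 6, quantile normalization repeated, median centring, a trend and robust variance model, array weights, a floor of 3, no moderation, averaged probe sets, each array left out in turn, and a fit without long day replicate 2 and short day replicate 3. Counts at p under 0.05 and of non-overlapping genes were added after the data were seen. The fit was also run on simulated arrays of independent normal values with known shifts. These held no links between samples and no tissue differences, so they do not test the calls made here.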

Additional observations from a re-analysis of the deposited data

Results flagged for a closer look

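In 72 groups of 4 samples (36 chaperone genes of mean 4 or more, each in short and in long days), the most distant sample stood apart from the other 3 in 3 groups, where chance flags about 1 in 20. Hsp68 was at 6.84 in short day replicate 1, against 7.26 to 7.29 in the other 3 short day samples. Fkbp14 was at 11.69 in short day replicate 2, against 11.90 to 11.93 in the other 3. Pfdn6 was at 9.91 in long day replicate 2, against 9.72 to 9.74 in the other 3 long day samples.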

How the results depend on the processing

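The 14 chaperone genes followed through 19 alternatives kept their direction in all 266 fits. In limma, 237 of these also kept their side of the threshold, 21 passed it newly and 8, all of Fkbp39, lost it, among them the replicate block and the trend and robust variance model. The count of chaperone genes called higher, 0 as reported, was 2 with the replicate block (l(2)efl and Pfdn4), 2 and 3 with filters at a mean of 4 and 6, 1 with array weights and 1 without both short day replicate 3 and long day replicate 2. It was between 0 and 2 with 1 array left out. The count called lower, 1 as reported, was 0 with the replicate block and with the trend and robust variance model, 2 with each filter, after median centring and after quantile normalization was repeated, and between 0 and 2 with 1 array left out. At p under 0.05 the 6 higher genes were 3 with the trend and robust variance model, 2 without both of these samples and between 2 and 6 with 1 array left out. The share of all genes at that threshold was not computed for the alternatives. The 3 genes with groups apart were 6 without both of these samples and between 4 and 8 with 1 array left out, where fewer values make an overlap less likely by construction. Over all probe sets, 518 calls became 300 with the block, 180 with the trend and robust variance model and between 345 and 568 with 1 array left out; the fewest were without long day replicate 3. They became 716 after median centring, 691 with array weights and 640 and 616 with the filters. The filter at a mean of 4 kept 9107 probe sets in the fit, 36 of them of chaperone genes. The share of calls that were higher was 55.2% (286 higher and 232 lower), and 43.3% (78 higher and 102 lower) with the trend and robust variance model. In the other alternatives it lay between 48.5% (median centring) and 62.2% (without short day replicate 4). The labels do not say whether replicate numbers pair the samples, and correlations among so few arrays cannot decide it. Deviations of the same number correlated above 0.1 in 1 of 4 pairs, and 1 of 4 short day samples correlated best with its own number. The highest correlation, 0.34, was between short day replicate 3 and long day replicate 2, the 2 samples left out together in 1 alternative. Apart from the stated range, the causes of these shifts were not tested. Among the 4 genes below a mean of 4, Hsp60B, Hsp60C and Hsp60D were at or next to the lowest value. Whether Hsc70-2 had signal over background was not tested.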
